A study of Homo sapiens with 4 samples.

Results

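The RNAs described here are 8 noncoding RNAs known as nuclear, as unspliced, or as both: RMRP, RPPH1, TERC, MALAT1, NEAT1, KCNQ1OT1, TUG1 and PVT1. They were chosen by name as abundant RNAs, although KCNQ1OT1 and PVT1 proved to be low in these cells, and every row of the deposited expression table that carries one of these names was taken. All 8 are in the table with 1 row each, among 23217 gene symbols and 44578 rows. The experiment compared LV-M100 cells, a clonal subpopulation of the breast cancer line MDA-MB-231, after transfection with control siRNAs (siControl) or with siRNAs against SNRNP40 (siSNRNP40). The SNRNP40 product belongs to the U5 particle of the spliceosome. The 2 siControl libraries received NC1 from IDT (replicate 1) or the BLOCK-iT Fluorescent Oligo (replicate 2), and the 2 siSNRNP40 libraries received siSNRNP40 #1 or #2. All transfections used a lipid reagent, and total RNA was taken after 48 h, cleared of ribosomal RNA and sequenced without selecting poly(A) tails.

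RMRP and RPPH1 are the RNA subunits of RNase MRP and RNase P, related enzymes that cut precursors of ribosomal RNA and of transfer RNA, and both are transcribed by RNA polymerase III without introns. TERC is the RNA subunit of telomerase and carries the template for telomere repeats. MALAT1 lies in nuclear speckles, where splicing factors are stored, while NEAT1 is the scaffold of paraspeckles, and RNase P cuts the primary transcript of MALAT1 and of the long NEAT1 isoform to form their 3′ ends. KCNQ1OT1 is an unspliced antisense transcript of an imprinted locus, TUG1 is a spliced nuclear RNA, and PVT1 is a spliced RNA made next to MYC.

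The table gives 1 value per condition and row, in FPKM (the fragments of a transcript over its length and the depth of the library), in which the authors pooled the libraries of a condition. There are therefore no replicates to compare, no value below has a replicate error, and no difference was tested. Differences are given as log2 of siSNRNP40 over siControl, so a positive value is higher with siSNRNP40. In RNA from whole cultures, fewer cells that hold an RNA and less of it per cell cannot be told apart. The FPKM of SNRNP40 was 40.4 with siControl and 6.12 with siSNRNP40, a log2 difference of -2.72. The markers of the cell line were those of MDA-MB-231 in most cases: VIM, CD44, EGFR and CAV1 were listed at 18.3 to 750.1 FPKM with siControl and at 22.7 to 733.03 with siSNRNP40, and ESR1, PGR and CDH1 were all under 0.1. EPCAM, set as a marker of low level, was listed at 10.6 and 10.0 FPKM. Of the markers of other cells, PTPRC (blood) and ALB (liver) were listed at 0 in both conditions and PECAM1 (endothelium) at 0.922 and 1.2015 FPKM.

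TERC, MALAT1 and NEAT1 carry a stretch of known role that can be read in the genome sequence. Those stretches, and bases of RMRP and RPPH1, are printed so that the values can be tied to an RNA molecule. All are from GRCh37, which has the coordinates of hg19, and read 5′ to 3′ on the strand of the gene. RMRP is a single exon of 268 bases on the minus strand at chr9:35657748-35658015, and is printed whole. RPPH1 is a single exon of 341 bases on the minus strand at chr14:20811230-20811570, and its bases 90 to 218 are printed (chr14:20811353-20811481). The capitals mark the longest run of identical bases that the 2 RNAs share, 9 bases long, at positions 243 to 251 of RMRP and 150 to 158 of RPPH1. No role is given to this run, and how often unrelated RNAs share a run this long was not computed.
RMRP: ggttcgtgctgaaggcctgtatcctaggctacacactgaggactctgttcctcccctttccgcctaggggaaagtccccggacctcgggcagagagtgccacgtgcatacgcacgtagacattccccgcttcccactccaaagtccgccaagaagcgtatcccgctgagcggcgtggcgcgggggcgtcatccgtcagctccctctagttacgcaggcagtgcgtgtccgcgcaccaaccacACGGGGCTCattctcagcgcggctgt
RPPH1: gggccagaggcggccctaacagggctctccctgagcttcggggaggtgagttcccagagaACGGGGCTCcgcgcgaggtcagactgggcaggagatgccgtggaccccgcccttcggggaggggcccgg
A global alignment of the whole RNAs gave 46.8% identical columns. A search for other places in GRCh37 at 80% of the length and 95% identity returned none for either sequence. It used a setting made for long sequences, which can miss copies of RNAs this short, so no absence is read from it. GENCODE release 44 names 5 pseudogenes of RMRP and 2 of RPPH1.

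TERC is a single exon of 451 bases on the minus strand at chr3:169482398-169482848. Its first 100 bases (chr3:169482749-169482848) hold the template of the telomere repeat, in capitals at positions 46 to 56. Its last 40 bases (chr3:169482398-169482437) hold the ACA box, in capitals, 3 bases before the end. This box marks the H/ACA class of RNAs, which DKC1, NOP10, NHP2 and GAR1 bind.
TERC first bases: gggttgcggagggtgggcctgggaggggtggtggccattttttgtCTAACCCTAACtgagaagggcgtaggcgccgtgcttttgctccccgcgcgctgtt
TERC last bases: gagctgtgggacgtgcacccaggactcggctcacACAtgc
Of 250371 GENCODE transcripts of at least 100 bases, 6 (0.0024%) hold the 11 template letters CTAACCCTAAC in their first 100 bases on either strand, and 2.45% of all transcripts have ACA at the same distance from the end. These letters are a description of the RNA, not a measurement of it.

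MALAT1 is listed as a single row of 8707 bases on the plus strand at chr11:65265233-65273939. The stretch printed (chr11:65273449-65273621) holds a run of 13 A in capitals, the longest in the 3′ part of the row, the only part searched. This run is encoded in the genome, lies 358 bases before the end of the row, and the mature RNA ends at this tract in place of a poly(A) tail. NEAT1 is listed as a row of 3735 bases on the plus strand at chr11:65190269-65194003, and its last 60 bases (chr11:65193944-65194003) are printed with AATAAA, the signal for polyadenylation, in capitals.
MALAT1 A run: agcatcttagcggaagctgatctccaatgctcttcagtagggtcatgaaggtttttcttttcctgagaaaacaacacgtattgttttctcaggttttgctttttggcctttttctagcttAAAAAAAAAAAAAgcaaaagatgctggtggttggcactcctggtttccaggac
NEAT1 short form end: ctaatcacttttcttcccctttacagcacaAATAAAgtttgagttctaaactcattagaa
An A run of 13 bases was present in 4.24% of 254413 GENCODE transcripts, and 28.4% of them had AATAAA in their last 60 bases. From the first base of AATAAA to the end of the NEAT1 row there are 30 bases, both counted. The annotated gene runs on to chr11:65213011, so the row covers 16.4% of it, the bases that the short and the long isoform share.

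The siRNAs against SNRNP40 are 18 bases long as the labels print them, and they are shown because these RNAs were searched for matches to them.
siSNRNP40 #1: ggaauagacaaugauauc
siSNRNP40 #2: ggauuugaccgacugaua
Neither strand of either siRNA matched RMRP, RPPH1, TERC, MALAT1, NEAT1, KCNQ1OT1 or TUG1 over its full length. PVT1 was not searched, and shorter seed matches were not counted.

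The levels of the 8 RNAs covered a wide range and kept 1 order in both conditions. From highest to lowest it was RMRP, RPPH1, MALAT1, TERC, NEAT1, TUG1, PVT1 and KCNQ1OT1. FPKM is per length, so this order is not one of read numbers. It need not be one of molecules either. Any correction for fragment length on short RNAs is unknown, and some rows may hold reads of overlapping RNAs. Without a spread between libraries no pair of neighbours in it could be tested. RMRP ranked 25th of all gene symbols with siControl and 20th with siSNRNP40, and KCNQ1OT1 ranked 10656th and 10179th. The closest neighbours were RMRP and RPPH1, with RMRP 1.51 times RPPH1 in siControl and 1.53 times in siSNRNP40.

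**Figure D1:**
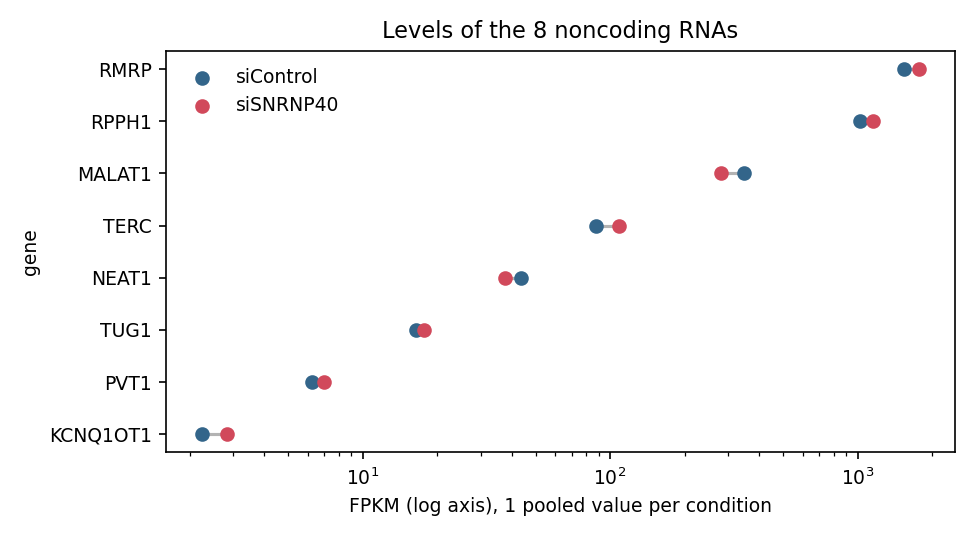
Level of each of the 8 noncoding RNAs in FPKM on a log axis, with 1 point per condition (blue siControl, red siSNRNP40) that is the pooled value of 2 libraries, so that no error can be drawn. The order of the genes is the same in both conditions, from RMRP at 1537 and 1769.9 FPKM to KCNQ1OT1 at 2.25 and 2.84, and the red point is to the left for MALAT1 and NEAT1 only.

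None of the 8 RNAs was past 2-fold in either direction, where 181 of 12334 genes were (1.47%). These genes averaged 1 FPKM or more and had a value above 0 in each condition, with FPKM summed over all rows of a symbol. None was past 1.5-fold either, where 7.02% of genes were. Each of the 8 has a single row, so its row and its gene sum are the same value. Over single transcript rows, 10.5% were past 2-fold, and the members again numbered 0. Of the 8, 6 were above 0 and 2 below 0, with a median log2 of 0.17, while the median over all genes was 0.0034 and 50.5% of genes were above 0. The 8 values ran from -0.30 for MALAT1 to 0.34 for KCNQ1OT1, inside the span from -0.35 to 0.36 that holds the genes between the 10th and the 90th percentile. The median size of the difference, without its sign, was 0.21 for the 8 RNAs and 0.17 for all genes.

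**Figure D2:**
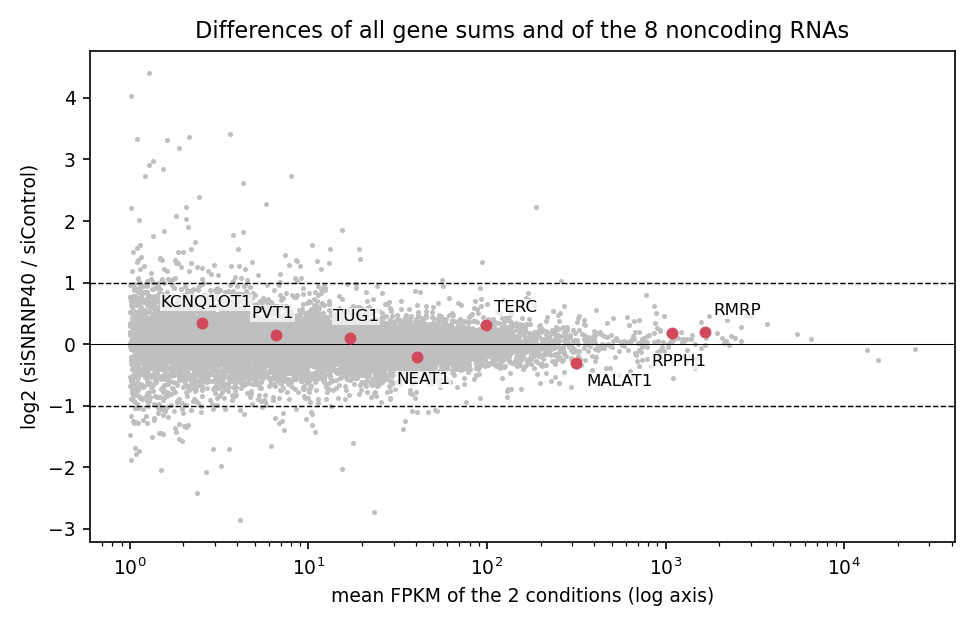
Log2 difference of siSNRNP40 over siControl for each gene symbol with a mean FPKM of at least 1 (grey, 12334 genes) and for the 8 noncoding RNAs (red), against the mean FPKM of the conditions on a log axis. The dashed lines mark 2-fold, and the 8 RNAs lie between -0.30 and 0.34, within the grey cloud at their level.

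RPPH1, the catalytic RNA of RNase P, was listed at 1020.2 FPKM with siControl and at 1158 with siSNRNP40. The log2 difference was 0.18, or 13.5%. Among the 104 genes with a mean FPKM within 2-fold of that of RPPH1, the median size of the difference was 0.12 and the 90th percentile was 0.39. The value of RPPH1 was thus larger than that of the middle gene at its level and inside the range of most. The annotation used, GENCODE release 44 lifted to GRCh37, gave no entry under the name RPPH1, and a long noncoding RNA, ENSG00000259001, is annotated over the same bases on the same strand (chr14:20811207-20811844), so reads of the 2 cannot be told apart.

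RMRP, the RNA of RNase MRP, was listed at 1537 and 1769.9 FPKM, a log2 difference of 0.20 or 15.2%. RMRP and RPPH1 therefore differed from siControl by nearly the same factor, and their ratio moved from 1.51 to 1.53. Of 65 genes at the level of RMRP, the median size was 0.14 and the 90th percentile 0.43. The protein subunits, most of which the 2 enzymes share, did not stand to one side: 10 of 11 listed were in the table and passed the filter, 5 were above 0 and 5 below, none was past 1.5-fold, and the median was 0.01. The highest was POP7, a subunit of both enzymes, at 27.4 and 36.2 FPKM (log2 0.40), and the lowest was RPP21, a subunit of RNase P, at 12.0 and 9.49 FPKM (log2 -0.34).

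TERC was listed at 87.7 FPKM with siControl and at 109.1 with siSNRNP40. The log2 difference was 0.31, or 24.4%, the second highest of the 8 after KCNQ1OT1. Of 1379 genes at the level of TERC, the median size was 0.13 and the 90th percentile 0.36, so TERC was nearer to that percentile than RMRP or RPPH1 were to theirs. RMRP was 17.5 times TERC in siControl and 16.2 times in siSNRNP40. The telomerase proteins were mixed: 11 of 11 were in the table and 10 passed the filter, of which 4 were above 0 and 6 below, with a median of -0.11 and none past 1.5-fold. The sign of this median turned when genes under 5 FPKM were left out (0.0045). The highest was DKC1, the pseudouridine synthase of H/ACA particles, at 87.1 and 97.0 FPKM (log2 0.16), and the lowest was GAR1, another H/ACA protein, at 4.67 and 3.86 FPKM (log2 -0.28). TERT, the reverse transcriptase, was listed at 0.0343 FPKM with siControl and at 0 with siSNRNP40, under the filter.

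MALAT1 was listed at 347.1 FPKM with siControl and at 281.7 with siSNRNP40. The log2 difference was -0.30, or -18.8%, the lowest of the 8. Its rank among all symbols went from 177 to 230. Of 346 genes at its level, the median size was 0.13 and the 90th percentile 0.38. RMRP was 4.43 times MALAT1 in siControl and 6.28 times in siSNRNP40, because the pair lay on opposite sides of 0. An antisense RNA, TALAM1, is annotated over chr11:65266783-65274903 on the minus strand, and the strand setting used in counting is not given in the sources used here, so the value may include reads of both. Genes of nuclear speckle proteins, the partners of MALAT1, had a median of -0.06. Of the list, 12 of 12 passed the filter, 5 were above 0 and 7 below, and none was past 1.5-fold. They ran from PNN, a speckle protein that binds factors rich in serine and arginine, at 57.2 and 47.1 FPKM (log2 -0.28), to SRRM1, a splicing coactivator, at 11.0 and 13.0 FPKM (log2 0.23).

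NEAT1 was listed at 43.7 FPKM with siControl and at 37.8 with siSNRNP40. The log2 difference was -0.21, or -13.5%. NEAT1 and MALAT1 were the 2 members below 0, and the ratio of MALAT1 to NEAT1 was 7.95 in siControl and 7.46 in siSNRNP40. Both lie on chromosome 11, where the annotated NEAT1 gene ends at 65213011 and the MALAT1 gene starts at 65265111. Of 3020 genes at the level of NEAT1, the median size was 0.14 and the 90th percentile 0.38. The row has the ends of the short isoform, but the long isoform that builds paraspeckles begins with the same bases, so reads of both fall in it and the isoforms cannot be told apart. A row inside the part that only the long isoform covers is MIR612, a microRNA gene of 100 bases at chr11:65211929-65212028, listed at 3.16 and 5.35 FPKM (log2 0.76). That value is far less precise than that of NEAT1, as the fragment numbers given further on show. Paraspeckle protein genes had a median of -0.06. Of the list, 13 of 13 passed the filter, 4 were above 0 and 9 below, and none was past 1.5-fold. They ran from TARDBP, the RNA-binding protein TDP-43, at 12.5 and 10.7 FPKM (log2 -0.22), to HNRNPH3 at 13.3 and 14.1 FPKM (log2 0.08).

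KCNQ1OT1 was listed at 2.25 FPKM with siControl and at 2.84 with siSNRNP40. The log2 difference was 0.34, or 26.4%, the highest of the 8 and that of the RNA with the lowest level. Of 3354 genes at its level, the median size was 0.24 and the 90th percentile 0.66, so genes of this level differed more in general. The gene (ENSG00000269821) is annotated on the minus strand of chromosome 11 from 2618538 to 2721233, inside KCNQ1, and the table gives it the merged locus chr11:2466221-2870340. KCNQ1 itself, the potassium channel gene on the other strand, was listed at 0.0196 FPKM and at 0. CDKN1C, the imprinted gene for a cyclin-dependent kinase inhibitor, was listed at 8.18 and 11.8 FPKM (log2 0.53). It lies 34108 bases from the end of that merged locus, and farther from the annotated KCNQ1OT1 gene. PHLDA2, another gene of that imprinted domain, was listed at 4.27 and 4.67 FPKM (log2 0.13).

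TUG1 was listed at 16.5 FPKM with siControl and at 17.6 with siSNRNP40, a log2 difference of 0.10 or 7.0% that was the smallest of the 8. Of 4417 genes at its level, the median size was 0.15. TUG1 (ENSG00000253352, chr22:31365634-31375380, plus strand) is annotated as protein coding in this release, with up to 4 exons in 20 transcripts, but the table holds 1 row for it. Antisense RNAs, ENSG00000269972 and ENSG00000269987, are annotated within it. NEAT1 was 2.65 times TUG1 in siControl and 2.14 times in siSNRNP40.

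PVT1 was listed at 6.26 FPKM with siControl and at 6.96 with siSNRNP40, a log2 difference of 0.15 or 11.1%. Of 4353 genes at its level, the median size was 0.18. With up to 13 exons in 190 annotated transcripts it is the member with the most exons, and again 1 row stands for all of them. MYC, its neighbour on chromosome 8, was listed at 29.8 and 33.5 FPKM (log2 0.17). TUG1 and PVT1, the members with several exons in each annotated transcript, were the 2 whose difference was smaller than that of the middle gene at their level. The microRNA genes hosted by PVT1 were listed at 0 in at least 1 condition, apart from MIR1207. MIR1204 was listed at 0 and 1.16 FPKM, MIR1205 at 1.89 and 0, and MIR1207 at 0.683 and 2.44. MIR1206 and MIR1208 were at 0 in both conditions. No fold was drawn from these rows.

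The depth behind the values can be read from rows of 50 to 1500 bases with 1 exon and few fragments, where FPKM multiplied by length moves in steps. In siControl 2 steps were found, 0.0297 and 0.0358 FPKM times kilobases, and 60 of 77 low values (77.9%) were whole sums of them within 0.0005. In siSNRNP40 the steps were 0.0674 and 0.0779, and 37 of 49 low values (75.5%) were whole sums. The steps were the 2 most frequent low values of each condition, so values at a step are counted in these shares. In siControl 35 and 13 values lay at the 2 steps, and in siSNRNP40 17 and 8. The shares are therefore no independent test of the steps. If the deposited value is the mean of 2 libraries, the steps stand for about 16800000 and 13900000 fragments in siControl and for about 7420000 and 6420000 in siSNRNP40, on the scale of the authors' normalization. Which library had which step is not known. By these steps the siSNRNP40 libraries were the shallower ones, and they set the precision.

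These steps give the number of fragments behind 5 members, each taken as 1 exon over its whole row. GENCODE gives MALAT1 up to 8 exons in 66 transcripts and NEAT1 up to 3 in 9, with 1 single-exon transcript each. MALAT1 rested on 84310 to 101698 fragments in siControl and on 31495 to 36396 in siSNRNP40, the range coming from the unknown share of each library. RMRP rested on 11490 to 13860 and on 6090 to 7038 fragments, and RPPH1 on 9705 to 11706 and on 5069 to 5857. NEAT1 rested on 4552 to 5490 and on 1812 to 2094 fragments, and TERC, the thinnest, on 1104 to 1332 and on 632 to 730. If the steps hold, counting error was small for all 5.

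With the lower number of fragments in each condition, the 95% counting interval of the log2 difference was -0.32 to -0.28 for MALAT1 and -0.29 to -0.13 for NEAT1. It was 0.17 to 0.46 for TERC, 0.16 to 0.25 for RMRP and 0.13 to 0.23 for RPPH1. None of the 5 intervals held 0. For MIR612, with 9 to 11 fragments in siControl and 7 or 8 in siSNRNP40, the interval was -0.68 to 2.20 and held 0. The intervals compare the pooled libraries, not the conditions. They cover counting error only: fragments copied by PCR without molecular identifiers are not independent molecules, and the spread between the libraries of a condition is unknown. TUG1, KCNQ1OT1 and PVT1 have no such interval because the table does not give the length of their transcripts.

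**Figure D3:**
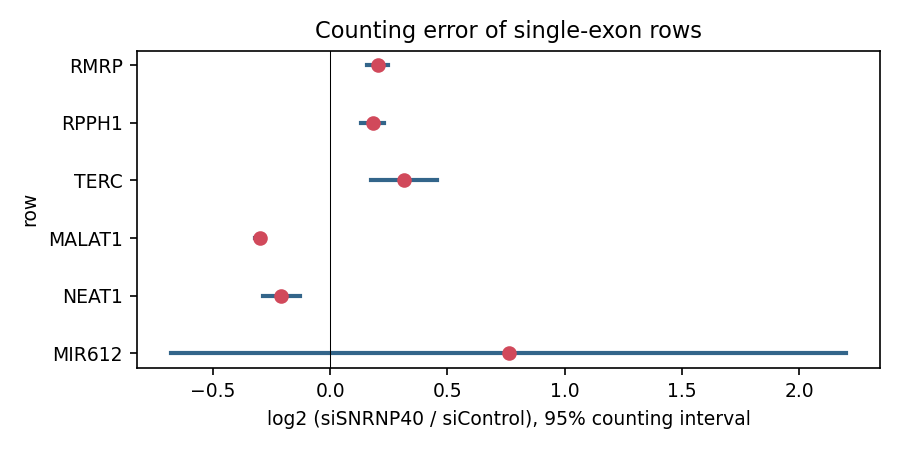
Log2 difference of siSNRNP40 over siControl (red points) with its 95% counting interval (blue bars) for the 5 single-exon members and for MIR612, which lies inside the long NEAT1 isoform. The bars leave out 0 for the members and include it for MIR612, and they hold no spread between libraries.

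Base composition was read for the same 5 members, over their whole rows. TERC, RMRP and RPPH1, all above 0, are 268 to 451 bases long with 63.1% to 67.4% G and C. MALAT1 and NEAT1, both below 0, are 8707 and 3735 bases long with 40.3% and 48.2% G and C. Length alone did not divide the 8 by sign, since KCNQ1OT1, annotated over 102696 bases, and TUG1, with a locus of 9747 bases, were both above 0. The part of length, base composition and depth in these differences was not tested.

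Most genes could be assigned to a class. Of 12334 genes, 86.2% had a type in GENCODE. Of the members, MALAT1, NEAT1, KCNQ1OT1, PVT1 and TERC are typed there as long noncoding RNAs. The 165 others of that type had a median log2 of 0.08 and a median size of 0.26, and 17% were past 1.5-fold. Protein-coding genes other than TUG1 numbered 10075, with a median size of 0.16, and 5.97% were past 1.5-fold. The 216 small nucleolar and Cajal body RNAs had a median of -0.0021, and 23.6% were past 1.5-fold. The median size of 0.21 over the 8 members lay between those of protein-coding genes and of long noncoding RNAs, and with 8 genes nothing is read from a count of 0 past 1.5-fold.

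A list of other long noncoding RNAs had a median of 0.16, near the 0.17 of the members. Of 29 listed, 23 were in the table and 15 passed the filter, with 11 above 0 and 4 below. The highest was OIP5-AS1, at 17.2 and 23.1 FPKM (log2 0.43). The lowest was MIR100HG, host of microRNAs of the let-7 and miR-100 families, at 12.1 and 7.77 FPKM (log2 -0.64), the 1 past 1.5-fold.

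A list of other small structured RNAs had a median of 0.02. Of 35 listed, 18 were in the table and 16 passed the filter with a finite fold, with 9 above 0 and 7 below. The highest was VTRNA1-3, a vault RNA made by RNA polymerase III as RMRP and RPPH1 are, at 1.97 and 4.29 FPKM (log2 1.12), the 1 past 2-fold. RNY4, a Y RNA also made by RNA polymerase III, was past 1.5-fold at 9.25 and 14.5 FPKM (log2 0.65). The lowest was VTRNA2-1 at 12.0 and 8.61 FPKM (log2 -0.48). These rows rest on few fragments: VTRNA1-3 on 5 or 6 in each condition, RNY4 on 9 to 11 in siControl and 6 or 7 in siSNRNP40, and VTRNA2-1 on 34 to 41 and 11 to 13. The 95% counting intervals of the log2 difference, -0.83 to 2.12 for RNY4 and -1.46 to 0.50 for VTRNA2-1, held 0, and none was computed for VTRNA1-3, which has too few fragments.

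**Figure D4:**
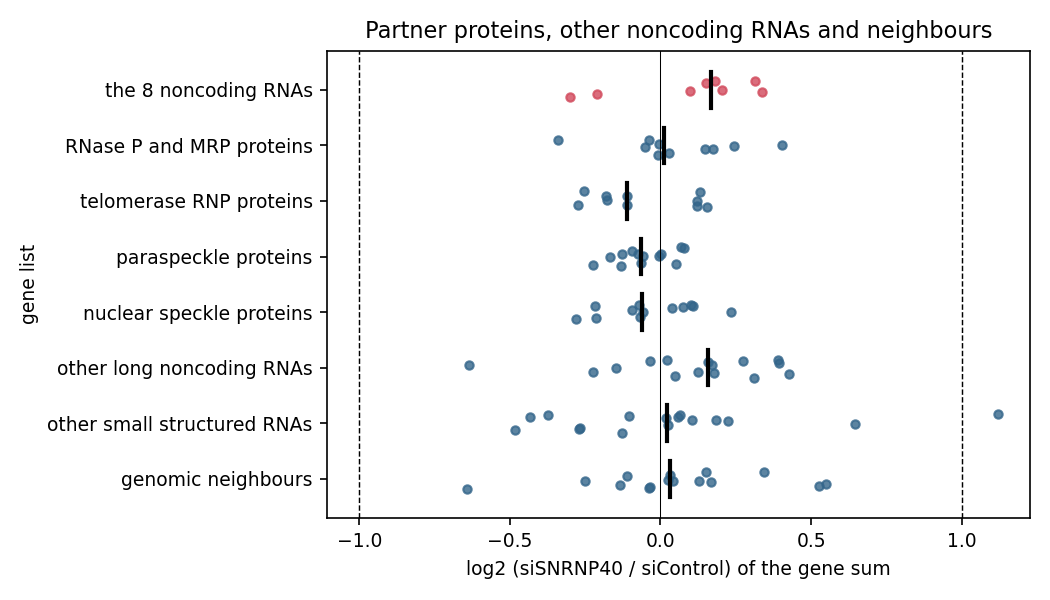
Log2 difference of siSNRNP40 over siControl for the 8 noncoding RNAs (red) and for the genes of 7 fixed lists (blue) with a mean FPKM of at least 1, with a black bar at each median and dashed lines at 2-fold. Vertical scatter within a row carries no value. The members have a median of 0.17, the other long noncoding RNAs 0.16 and the 6 remaining lists between -0.11 and 0.03.

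Values of the genes beside the members are given locus by locus. Of 19 on a fixed list, 18 were matched by name and 15 passed the filter, with 9 above 0, 6 below and a median of 0.03. MIR612, C9orf100 and MORC2-AS1 are not in these counts. Nor is ARPM1, an older name of ACTRT3, the listed gene that was not matched. At the RMRP locus CCDC107, a gene that starts 272 bases away, was at 3.92 and 5.74 FPKM (log2 0.55), the highest of the fixed list. C9orf100, in the same locus row, was at 3.82 and 4.01 FPKM (log2 0.07). At the TERC locus, where TERC was above 0, the neighbours were below 0. ARPM1, the nearest, was listed at 1.62 and 1.12 FPKM (log2 -0.53). LRRC34 was listed at 4.31 and 2.76 FPKM (log2 -0.64, the 1 gene of the fixed list past 1.5-fold) and MYNN, a zinc finger gene, at 8.08 and 6.80 FPKM (log2 -0.25). PARP2, a DNA repair gene 203 bases from RPPH1, was listed at 16.8 and 16.4 FPKM (log2 -0.04).

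At the NEAT1 and TUG1 loci the neighbours varied. FRMD8, 9274 bases from NEAT1, was listed at 4.77 and 4.64 FPKM (log2 -0.04), and SLC25A45, 40127 bases away, at 1.16 and 1.48 FPKM (log2 0.34). MORC2, 1447 bases from TUG1, was listed at 4.46 and 4.57 FPKM (log2 0.03), and its antisense RNA MORC2-AS1 at 1.09 and 1.89 FPKM (log2 0.79).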

How the data were processed

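RNA from 4 libraries, 2 per condition, was studied through the table that the authors deposited. Per the submitters' processing notes and the study's methods, reads were trimmed with cutadapt 1.2.1, mapped to hg19 with TopHat2 2.0.8 and assembled with Cufflinks, and the conditions were compared with Cuffdiff 2.0.2. In the deposited table, FPKM is the authors' estimate per transcript row, normalized for transcript length and mapped fragments, with the libraries of a condition pooled. The strand setting, and any correction for fragment length on short RNAs, are not given in the sources used here. Both can change the level of a short or overlapped RNA. The authors' log2 fold changes, test statistics, p-values and q-values in the same table were not used.

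The 8 members, the gene lists and the rules were chosen with earlier results of these data known. FPKM was summed over the rows of a gene symbol, without a pseudocount. Genes averaging 1 FPKM or more entered counts and medians. Named genes were SNRNP40, the members, the highest and lowest gene of each list among those at 1 FPKM or above in each condition, and listed genes beside a member, of which 1 is not reported here. MIR612, the microRNA genes of PVT1, TERT, RNY4, ARPM1, C9orf100 and MORC2-AS1 were named after their values were seen. ARPM1 is on the neighbour list as ACTRT3, a name that was not matched. Alternatives changed the filter, the pseudocount, the scaling, the rows used and the genes counted.

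Genome sequence and annotation were GRCh37 with GENCODE release 44 lifted to that build. Copies were searched with minimap2 2.31 and alignments made with Biopython 1.88. Scripts ran under Python 3.11.15 with matplotlib 3.10.9, numpy 2.4.6 and pandas 2.3.3.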

Additional observations from a re-analysis of the deposited data

How the results depend on the processing

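All 40 values of the 8 RNAs under another pseudocount, scaling or choice of rows kept their sign and moved by at most 0.0959 on the log2 scale. Most of this was fixed in advance. Each member has a single row, so the choice of rows could not change its value. The scalings subtracted the same constant, 0.0034 or -0.0305, from every gene. A pseudocount cannot change a sign, so only the size of its shift was open. The number of members past 2-fold stayed at 0 under each filter, pseudocount and unit tried. For SNRNP40 a pseudocount of 1 FPKM gave a log2 difference of -2.54. The number of all genes past 2-fold was 1870 without a filter, 49 with a mean FPKM of at least 5, 74 with a pseudocount of 1 FPKM and 1760 over single transcript rows, so the background share depends on these choices. The median of the telomerase proteins was 0.0045 when genes averaging under 5 FPKM were left out and 0.12 over genes with a single row, and that of the RNase P and MRP proteins was 0.15 over genes with a single row. The restriction to genes with a single row was chosen after seeing the data, and the cause of these shifts was not tested. The other 21 of 24 list medians moved by less than 0.1.

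No paired analysis was possible because the table pools the libraries of each condition into 1 value. Leaving out a replicate and a fit with the replicate block were not run for the same reason, so knockdown by each siRNA and the 2 kinds of control siRNA could not be compared. Depth as read from the steps was lower with siSNRNP40, and it limits the hosted microRNA rows most.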
